A study of Drosophila melanogaster with 2 samples.

Results

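Of the 30000 pooled regions of CG1792-GFP ChIP-seq signal, 412 lay on chromosome 4, the smallest chromosome of Drosophila melanogaster. They were taken as every row of the pooled list on that chromosome, with no further cut by strength. The pooled list and the list of each replicate hold 30000 regions, so counts and densities are shares of a fixed number. These 412 regions made up 1.37% of the pooled list. The chromosome (1348131 bp in build dm6) made up 1.01% of the assembled length of the 6 chromosome arms. Of these regions 8 were thresholded peaks, and the other 404, called background here, did not overlap a thresholded peak. CG1792 binding was mapped by chromatin immunoprecipitation and sequencing in whole embryos collected over 0 to 24 h, with males and females pooled. All embryos came from a transgenic line, CG1792-GFP, that stably expresses CG1792 with GFP joined to its C-terminus. Chromatin was sheared by sonication to 200 to 800 bp and was precipitated with an antibody to GFP, while the antibody field of the labels gives CG1792. There were 2 libraries, replicates 2 and 3, of 1 group, with no other condition. A control alignment was used by the authors in calling the regions, but no control library is among the samples analysed here, so chromosome 4 was set against the large arms X, 2L, 2R, 3L and 3R in the same libraries. The labels do not state the promoter that drives the fusion or whether the native gene was still present. Because whole embryos were used, binding in fewer cells and weaker binding in each cell cannot be told apart.

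Chromosome 4, also called the dot chromosome or Muller F element, is packaged largely as heterochromatin, with HP1a and histone H3 lysine 9 methylation along its length. Its genes are interspersed with remnants of transposons, above all INE-1 and 1360, yet many of them are transcribed, and a dedicated protein, POF, coats the chromosome's active genes. Several well-known developmental regulators map there, among them ci, ey, toy, pan and zfh2. CG1792 belongs to the ZAD family of C2H2 zinc finger proteins, in which an N-terminal zinc-finger associated domain mediates dimerisation and the fingers bind DNA.

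The DNA under the peaks is shown first, since these 8 places are where the fusion protein was called bound on this chromosome. Each line gives the summit base, at position 51, and 50 bases on either side of it on the dm6 forward strand. Capitals mark matches on either strand to the elements listed further down, and a line without capitals held none of them. The strongest peak, at rank 211, overlapped untranslated sequence and is described by its position only.
Peak of rank 335, between genes upstream of zfh2, chr4:497829-497929: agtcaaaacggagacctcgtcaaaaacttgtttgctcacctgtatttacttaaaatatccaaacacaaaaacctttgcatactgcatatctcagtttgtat
Peak of rank 427, between genes upstream of lncRNA:CR43437, chr4:424770-424870: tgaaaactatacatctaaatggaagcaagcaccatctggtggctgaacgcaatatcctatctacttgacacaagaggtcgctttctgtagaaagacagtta
Peak of rank 1007, between fuss and toy, chr4:982931-983031: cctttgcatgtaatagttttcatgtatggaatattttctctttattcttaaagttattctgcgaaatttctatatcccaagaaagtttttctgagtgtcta
Peak of rank 1054, Sox102F start, chr4:807590-807690: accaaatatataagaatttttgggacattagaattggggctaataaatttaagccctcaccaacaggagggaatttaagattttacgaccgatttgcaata
Peak of rank 1449, gw start, chr4:660112-660212: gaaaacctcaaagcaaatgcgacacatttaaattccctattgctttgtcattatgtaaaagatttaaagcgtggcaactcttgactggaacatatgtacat
Peak of rank 1837, RpS3A start, chr4:67246-67346: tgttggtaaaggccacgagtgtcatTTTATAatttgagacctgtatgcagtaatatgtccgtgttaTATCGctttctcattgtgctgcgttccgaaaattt
Peak of rank 2376, zfh2 start, chr4:501677-501777: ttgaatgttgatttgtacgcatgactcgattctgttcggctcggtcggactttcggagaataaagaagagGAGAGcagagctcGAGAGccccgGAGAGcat

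In the zfh2 line the capitals are 3 copies of GAGAG, the short form of the element bound by the GAGA factor, beginning at positions 71, 84 and 94. In the RpS3A line they are TTTATA at position 26, the reverse complement of the TATA box TATAAA, and TATCG at position 67, the reverse complement of CGATA, the core of the element bound by the factor DREF. The other 5 lines held no match. All 8 summit windows occurred once in the reference genome by their 31-base words, and no peak summit lay in an annotated transposon. The median G+C content of the 8 windows was 34.7%, against medians of 35.6 to 36.6% in the peaks of the large arms.

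The strongest peak (chr4:1113231-1113437) had its summit at 1113306, where the 3′ ends of 2 converging genes overlap. That position was in the 3′ UTR of sv (1088798 to 1113317, forward strand), 11 bp inside the annotated end of the gene, and also in the 3′ UTR of Cals (1112874 to 1123357, reverse strand). The gene sv, or shaven, encodes a Pax2-type transcription factor, and Cals encodes a calsyntenin. The peak had a pooled signal of 263, with 123 in replicate 2 (rank 204) and 136 in replicate 3 (rank 234). Signal here means the strength that the peak caller gave to a region. The sources do not state its scale, or whether the lists share one, so lists are compared by rank. The replicate summits lay within 1 bp of the pooled summit.

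The next 3 peaks lay between genes. The peak of rank 335 (chr4:497671-498086, summit 497879) was 3931 bp upstream of zfh2, which encodes a zinc finger homeodomain transcription factor. It was also 8885 bp upstream of Asator, the gene on its other side. Replicate 2 gave it a signal of 92.5 (rank 384), replicate 3 gave 119 (rank 312), and the pooled signal was 210. The peak of rank 427 (chr4:424741-424898, summit 424820) was 1247 bp upstream of the noncoding RNA gene lncRNA:CR43437. Here the signals were 96.5 for replicate 2 (rank 355), 92.1 for replicate 3 (rank 531) and 190 for the pool. The peak of rank 1007 (chr4:982773-983188, summit 982981) lay in the space between the divergent genes fuss and toy, 4492 bp upstream of fuss, a Ski/Sno family gene, and 6744 bp upstream of toy, a Pax6 gene. Signals were 45.9 for replicate 2 (rank 1585), 76.7 for replicate 3 (rank 778) and 121 for the pool. Both libraries ranked the first 3 of the chromosome's peaks at 531 or better, while the fuss and toy peak was stronger by rank in replicate 3.

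The remaining 4 peaks were at protein-coding starts, all upstream of the start nearest to them. At Sox102F (800436 to 834393, reverse strand) and gw (649041 to 660608, reverse strand) that start was an internal one. These summits, at 807640 and 660162, thus lay inside the annotated genes. Sox102F, which encodes a SoxD-type transcription factor, had a peak 293 bp upstream of a start (chr4:807432-807847, rank 1054), with signals of 44.9 for replicate 2 (rank 1669), 73.6 for replicate 3 (rank 836) and 119 for the pool. The peak at gw, which encodes the microRNA silencing protein GW182, lay 179 bp upstream (chr4:659954-660369, rank 1449), with signals of 49.1 for replicate 2 (rank 1389), 53.0 for replicate 3 (rank 1531) and 100.5 for the pool. These peaks thus ranked alike in both libraries at gw and higher in replicate 3 at Sox102F. At RpS3A, a gene for a protein of the small ribosomal subunit, the peak was 89 bp upstream (chr4:67088-67503, rank 1837), with signals of 41.4 for replicate 2 (rank 1903), 45.1 for replicate 3 (rank 2063) and 86.9 for the pool. The weakest peak, 83 bp upstream of zfh2 (chr4:501519-501934, rank 2376), had signals of 29.4 for replicate 2 (rank 3635), 41.8 for replicate 3 (rank 2386) and 75.2 for the pool. The peak of rank 335 lay between Asator and zfh2, and zfh2 had the nearest start to 2 of the 8 peaks. Its start peak was also the only 1 of the 8 that was not among the 2892 strongest regions, the number of thresholded peaks, in both replicates.

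The thresholded peaks were the 2892 strongest pooled regions, and the chromosome 4 regions next in rank were these 5. The region of rank 2987, 542 bp upstream of Asator, which encodes a tau-tubulin kinase family protein, ranked 5591 in replicate 2 and 2090 in replicate 3. The region at the start of lgs, a Wnt pathway coactivator gene (rank 3112), ranked 2197 in replicate 2 and 7830 in replicate 3. The region shared by the starts of ATPsynbeta, which encodes a subunit of the mitochondrial ATP synthase, and CG11076 (rank 3491) ranked 5302 in replicate 2 and 2984 in replicate 3. Of these 3, the Asator and ATPsynbeta regions were stronger by rank in replicate 3 and the lgs region in replicate 2. The start of PlexA, a semaphorin receptor gene (rank 3740), ranked 2168 in replicate 2 and 12618 in replicate 3. A coding exon of the translation initiation factor gene eIF4G1 (rank 3806) ranked 2222 in replicate 2 and 10224 in replicate 3. Across the threshold the pooled signal was 75.2 in the last peak and 65.9 in the first of these 5, and each of the 5 ranked below 2892 in at least 1 library. The thresholded list holds the strongest regions of the pool of these libraries, so high peak ranks in both follow in part from that choice.

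**Figure D1:**
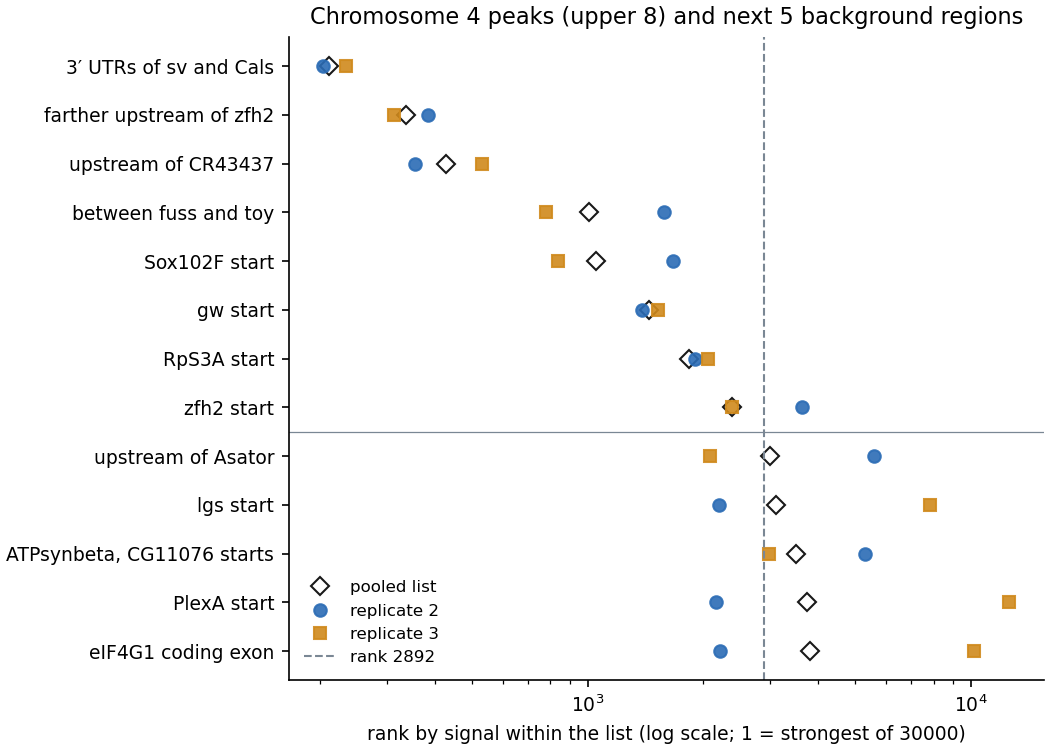
Rank by signal (log scale, 1 = strongest of 30000) of the 8 chromosome 4 peaks (above the line) and of the next 5 background regions (below it), in the pooled list and in each replicate. The dashed line is rank 2892. All 8 peaks but the zfh2 start lie left of it in both replicates, and the 5 background regions lie right of it in at least 1. The peaks are the strongest regions of the pool of these replicates.

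Each library on its own gave a short list of strong regions. Among the 2892 strongest regions of replicate 2, 12 were on chromosome 4, of which 7 were at the peaks above. Among those of replicate 3, 9 were on chromosome 4, of which 8 were at the peaks. The only other region of replicate 3 was the one upstream of Asator. The other 5 of replicate 2 were at PlexA, lgs and eIF4G1, 759 bp upstream of ey, and between genes beyond the 3′ end of Sox102F, and in replicate 3 the nearest regions to them ranked between 7830 and 20559. Of the 404 background regions, 90 (22.3%, Wilson 95% interval 18.5 to 26.6%) had a summit within 100 bp in both replicates, against 26.2 to 29.1% of background on the large arms. A further 36.1% had a summit in replicate 2 alone, 25% in replicate 3 alone, and 16.6% in neither, against 28.9 to 32.1%, 27.9 to 30.4% and 12.7 to 13.9% on the large arms. The background was also weaker on chromosome 4, with a median pooled rank of 17700 against 16572 on the large arms. The part of this in the shares was not tested.

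**Figure D2:**
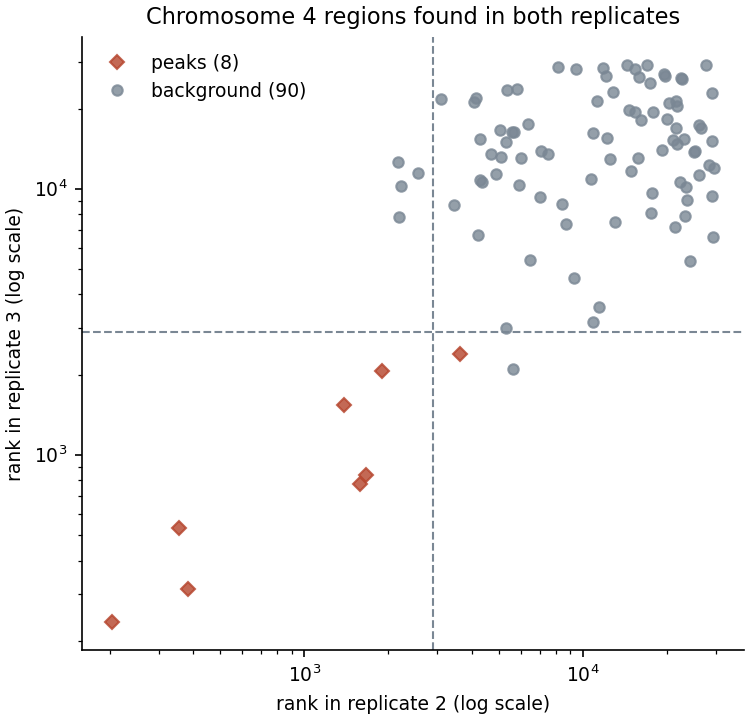
Rank in replicate 2 and rank in replicate 3 (log scales, 1 = strongest) of the chromosome 4 regions with a summit within 100 bp in both replicates, 8 peaks and 90 background regions. Dashed lines mark rank 2892. In both replicates 7 peaks and no background region lie under it. The peaks are the strongest regions of the pool of these replicates.

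The share of peaks among the regions was low on this chromosome. The 8 peaks were 1.94% of its 412 regions (Wilson 95% interval 0.987 to 3.78%), where peaks were 9.64% of all 30000 regions and 8.89 to 10.7% of those on each large arm. Counting every region that overlapped a peak gave the same 8 on chromosome 4, against 11.8% of all regions and 10.98 to 12.95% on the large arms. Chromosome 4 had 5.93 peaks per Mb and 306 regions per Mb of either kind, whereas the large arms had 20.95 to 23.3 peaks and 203 to 240 regions per Mb. The same held within each library. In replicate 2, 2.84% of chromosome 4 regions were among the 2892 strongest, against 8.73 to 10.9% on the large arms, and in replicate 3 it was 2.62%, against 9.21 to 10.3%. The density of regions was 313 per Mb in replicate 2 and 255.2 per Mb in replicate 3, both above every large arm (197 to 244 and 207 to 238 per Mb). The 2 libraries gave chromosome 4 unequal numbers of regions, 422 and 344, a ratio of 1.23, against ratios of 0.954 to 1.03 on the large arms. Each of these lists holds 30000 regions, so the counts and densities are shares of a fixed number. These shares and densities are descriptions, with no test between chromosomes, since chromosome 4 is 1 chromosome measured in 2 libraries, and their intervals cover the counting of regions only. Chromosome 4 also had 24.8% of its bases in annotated transposons, against 4.06 to 7.75% on the large arms, and a G+C content of 35.3%, against 41.6 to 42.6%. The part of these differences in the shares and densities was not tested.

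The shortfall reached past the peaks into the next strongest ranks. The median pooled rank of chromosome 4 regions was 17442, with quartiles of 11856 and 24001, against medians of 14490 to 15206 on the large arms. The median was 17487 in replicate 2 and 17608 in replicate 3, against 14799 to 15072 and 14531 to 15372. When the pooled list was cut by strength into 10 bins of 3000 regions, 9 chromosome 4 regions (2.18%, interval 1.15 to 4.10%) fell in the strongest bin and 21 (5.10%, 3.36 to 7.67%) in the next. The large arms had 9.16 to 11.1% and 9.41 to 10.8% there. Each of the other 8 bins held between 37 and 61 chromosome 4 regions. In the pooled list the authors' q-value rose as the chromosome 4 signal fell. A cut on it is thus another cut of nearly the same ranking, not separate evidence. At or under 0.05 were 34 chromosome 4 regions (8.25%) in that list, against 19.5 to 22.0% on the large arms. In replicate 2 these were 20 regions (4.74%, against 13.4 to 15.5%), and in replicate 3 they were 39 (11.3%, against 25.7 to 27.5%).

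**Figure D3:**
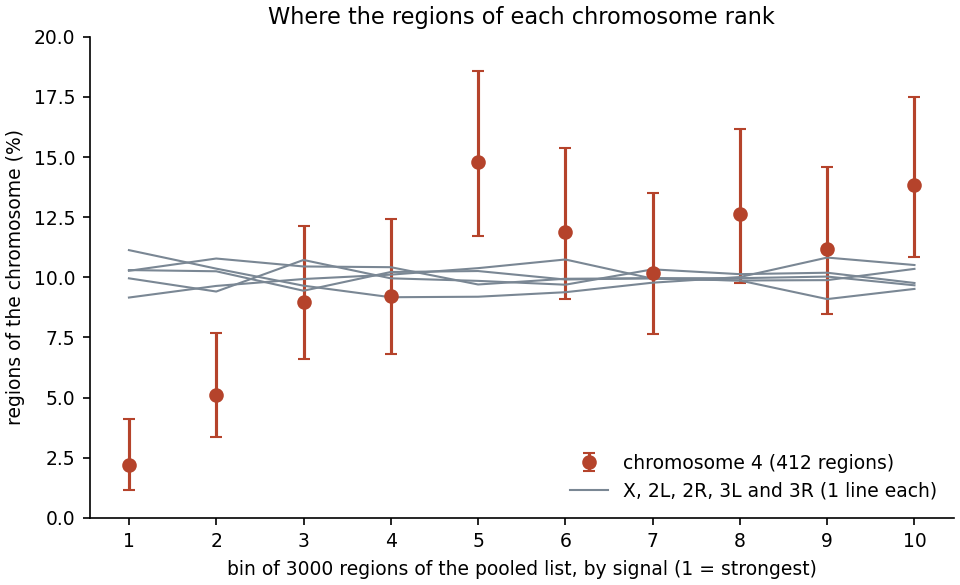
Percent of each chromosome's pooled regions in each bin of 3000 regions of the list by signal (1 = strongest). Points with Wilson 95% intervals are chromosome 4 (412 regions) and lines are the large arms. Chromosome 4 has 2.18% and 5.10% of its regions in the 2 strongest bins, below all 5 lines.

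Agreement between the libraries depended on strength. Of the 422 chromosome 4 regions of replicate 2, 93 (22.0%, interval 18.4 to 26.2%) had a summit of replicate 3 within 100 bp, against 32.1 to 37.3% on the large arms. Of the 344 regions of replicate 3, 93 (27.0%, 22.6 to 32.0%) had a partner in replicate 2, against 33.1 to 35.6%. Among the 2892 strongest regions a partner was present for 11 of 12 in replicate 2, against 85.9 to 90.9% on the large arms. In replicate 3 a partner was present for 9 of 9, against 87.1 to 92.2%. Among all weaker regions it was present for 20% in replicate 2, against 26.7 to 30.8% on the large arms, and for 25.1% in replicate 3, against 27.4 to 29.1%. Among ranks up to 10000, 42 of 95 regions of replicate 2 (44.2%) and 29 of 66 of replicate 3 (43.9%) had a partner, against 56.8 to 66.5% and 57.3 to 66.7%. Among the next 10000 ranks the libraries differed, with a partner for 16% of the regions of replicate 2 (interval 10.99 to 22.7%), below the 23.5 to 28.7% of the large arms, and for 28.5% of those of replicate 3 (21.7 to 36.3%), above their 23.04 to 26.4%. Among the last 10000 ranks the shares were 15.3% in replicate 2 and 17.2% in replicate 3, against 16.0 to 18.5% and 14.8 to 18.3%. Among these bins of 10000 ranks, the lower share on chromosome 4 thus appeared from both libraries only in the strongest bin. That bin was not matched for rank, since 12 of its 95 chromosome 4 regions in replicate 2 were among the 2892 strongest. On the large arms it was 2880 of 9905. In replicate 3 it was 9 of 66, against 2883 of 9934. The part of this in the lower share was not tested.

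The regions were spread along the chromosome. In 100 kb windows along it, the first 12 windows held 22 to 42 regions each, the 13th held 17, and the last 48131 bp, of which 95.4% was annotated transposon, held none. The peaks were spread over 7 of the windows, with 2 in the window from 400001 to 500000. Windows with at least 20% transposon held 5 of the 8 peaks, and also 250 of the 412 regions. They made up 0.848 of the 1.348 Mb. Consecutive summits were a median of 1764 bp apart, against 1497 to 1856 bp on the large arms, and 44.4% had a neighbour within 1000 bp, against 49.9 to 56.3%. The 9 chromosome 4 windows with at least 20% transposon held 295 regions per Mb, of which 2.00% were peaks (interval 0.857 to 4.596%), whereas the 73 on the large arms held 74.1 regions per Mb, of which 5.85% were peaks (4.15 to 8.18%). Peaks per Mb were close in these 2 sets, at 5.90 and 4.33, and the other windows of the large arms had 22.8. The 2 sets were not alike, since those of chromosome 4 had 29.3% of bases in transposons and 16.6% in coding sequence, and those of the large arms had 39.4% and 7.51%.

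The place of a summit relative to genes was recorded for peaks and background. Each summit was assigned to a gene start if it was within 500 bp of a transcript start, and otherwise to coding exon, UTR, noncoding exon, intron or the space between genes. Of the 8 peaks, 4 were at gene starts, 3 were between genes and 1 was in a 3′ UTR. None was assigned to a coding exon or an intron. The gene start class came first, so it took the Sox102F and gw summits, which lay inside their genes. Of the large arm peaks, 55.6% were at gene starts, 31.6% in introns and 10.4% between genes. With 8 peaks the interval of a class with none reached 32.4%, which takes in the intron share on the large arms.

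Of the 404 background summits, 84 (20.8%, interval 17.1 to 25.02%) were at gene starts, against 25.8 to 33.8% on the large arms. Gene start windows covered 10.7% of chromosome 4 and 13.6% of the large arms. Summits there were thus 1.94 times their share of bases on chromosome 4 (interval 1.59 to 2.33). On the large arms together they were 2.13 times, and by arm 1.915 to 2.323 times, a range that takes in chromosome 4. Coding exons held 87 summits (21.5%, interval 17.8 to 25.8%), against 10.3 to 11.2% on the large arms. They also covered more of chromosome 4, 18.9% of bases against 13.9%, which leaves summits at 1.14 times the base share (interval 0.941 to 1.36) on chromosome 4 and 0.774 times (0.747 to 0.801) on the large arms. Introns held 139 summits (34.4%), or 0.807 times their base share (0.702 to 0.919), against 0.992 times on the large arms. Between genes there were 55 (13.6%), in 3′ UTRs 24, in 5′ UTRs 10 and in noncoding exons 5. Background regions at gene starts had a median rank of 11843 on chromosome 4, where coding exon regions had 18416 and intron regions 20598, and the large arms had 13055, 19141 and 17087 in the same classes. The coding exon windows were also the richer in G+C, with a median of 40.6% on chromosome 4 against 34.7% in introns and 36.6% at gene starts, and 55.5% in coding exons of the large arms. The part of base composition in these shares was not tested.

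**Figure D4:**
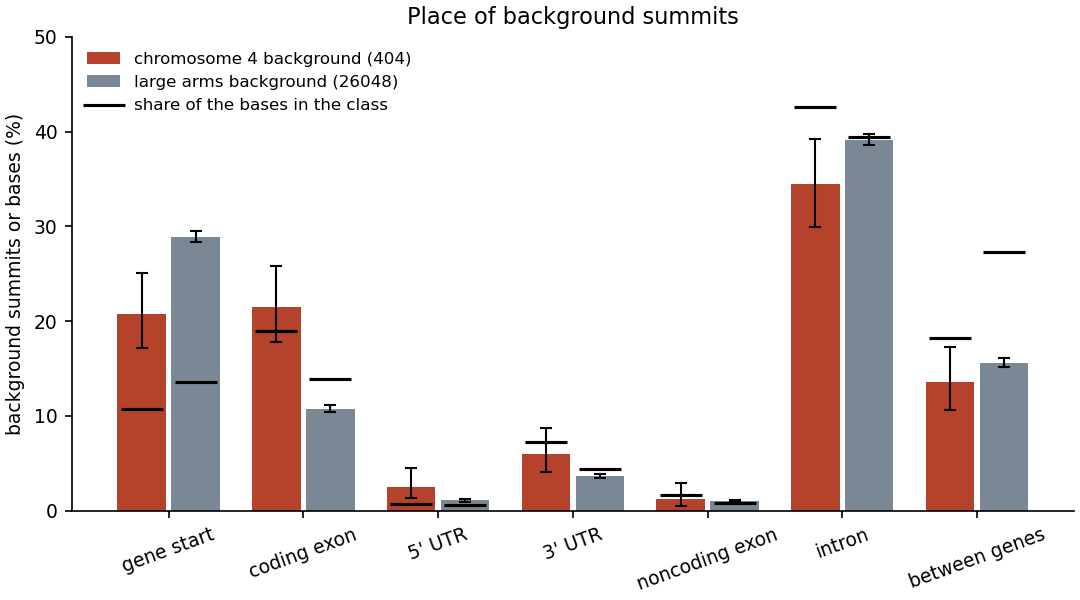
Percent of background summits in each gene class on chromosome 4 (404 summits) and on the large arms (26048), with Wilson 95% intervals. Horizontal marks give the percent of bases in the class; coding exons hold 21.5% of the chromosome 4 summits and 10.7% of those on the large arms.

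The coding exon summits were spread over 47 genes, 24 of them with 1 summit. The genes with the most, chosen after their values were seen, were CG33978 with 8 in 12554 coding bases, the Mediator subunit gene MED26 with 5 in 4449, and Eph, which encodes the ephrin receptor, with 4 in 3342. Eph and CG33978 had no region within 500 bp of a start.

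Summits in transposons were many in number but fewer than the transposons' share of bases. Of the background summits, 55 (13.6%, interval 10.6 to 17.3%) lay in an annotated transposon, which made up 24.8% of the chromosome, and none of the 8 peaks did. On the large arms 0.322 to 0.607% of background summits were in transposons. By family, INE-1 held 34 summits (8.25% of the 412), close to its 7.22% of the chromosome in 344 insertions, 1360 held 6 and Cr1a held 4. By their 31-base words, 4 background windows had more than 1 copy in the genome, and of the windows with 1 copy, 13% had their summit in a transposon. How reads with several matches were aligned is not stated in the labels. Background regions in transposons had a median rank of 19740, and those outside had 17312.

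All 4 peaks at protein-coding starts were upstream of the nearest start, at −293, −179, −89 and −83 bp. The −293 and −179 bp are from internal starts of Sox102F and gw. On the large arms 79.4% of the peaks at such starts were upstream, with a median position of −82 bp. The background lay on both sides. Of the 71 background summits within 500 bp of a protein-coding start, 39 (54.9%, interval 43.4 to 66.0%) were upstream, with a median position of −42 bp, against 50.2% and −1 bp on the large arms. On chromosome 4 the fullest 100 bp step was 200 to 100 bp upstream, with 16 background summits (3.96%). The last 100 bp upstream held 14 (3.47%) on chromosome 4, and on the large arms this was the fullest step, with 5.66%.

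**Figure D5:**
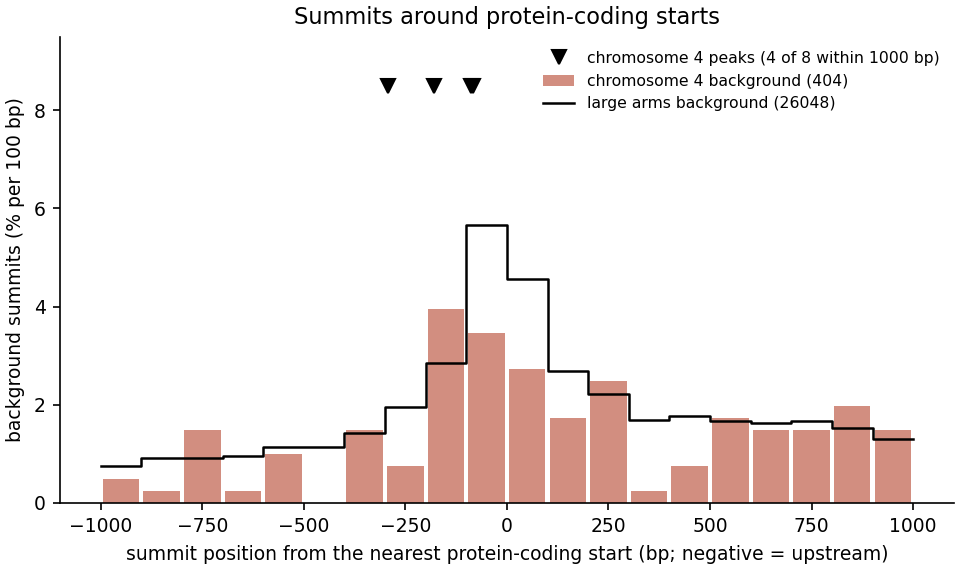
Percent of background summits in each 100 bp step from the nearest protein-coding start (negative = upstream) on chromosome 4 (bars, 404 summits) and on the large arms (line, 26048). Triangles mark the 4 chromosome 4 peaks within 1000 bp of such a start, all upstream between −293 and −83 bp.

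Of the 80 protein-coding genes of chromosome 4, 4 (5.00%, interval 1.96 to 12.2%) had a peak within 500 bp of a start, against 14.2% of all protein-coding genes and 12.6 to 15.9% on the large arms. A region of any strength was at a start of 54 genes (67.5%, 56.6 to 76.8%), against 53.2% of all genes and 50.6 to 54.3% on the large arms. The chromosome was thus low for genes with a peak and high for genes with any region. Regions were also 1.273 to 1.503 times denser there than on the large arms, and the part of that density in the higher share of genes was not tested. Of the 54 genes, 33 had 1 region and 21 had 2 or more. For 33 of the 54 the strongest start region had a summit within 100 bp in both replicates, and for 3 genes, Sox102F, gw and RpS3A, it was among the 2892 strongest of both. Of the 26 genes with none, most had a region elsewhere in the gene: 73 of the 80 genes held a region in the body and 5 had a region neither there nor at a start. The gene body with the most regions, chosen after its values were seen, was that of the calcium pump gene PMCA, with 15, although its only start region ranked 15105.

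Of all 80 protein-coding genes of the chromosome, 67.5% had a region at a start and 5.00% had a peak there. Among the genes grouped by role, transcription factors had a region at a start in 11 of 13 genes (84.6%), with a peak in 2. These were Sox102F and zfh2, described above. The next strongest were lgs (rank 3112) and dati, a zinc finger gene (rank 7869; 10712 in replicate 2 and 10873 in replicate 3). No region was found at a start of fd102C or sv, although sv held the strongest peak of the chromosome at its other end. Of the regulators best known from this chromosome, named for that and not by rank, the strongest start region of ci, the Hedgehog pathway effector, was at rank 8574, of ey (Pax6) at 11762, of pan, the Wnt pathway TCF, at 13211 and of toy at 28566.

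Of 10 signalling and guidance genes, 6 (60%) had a start region, beside 67.5% of all genes of the chromosome, and none had a peak. The plexin genes PlexA (rank 3740) and PlexB (rank 4099; 3454 in replicate 2 and 8691 in replicate 3) were the strongest, both stronger by rank in replicate 2. They were followed by Crk, an adaptor protein gene (rank 6317), and Asator (rank 9719 within 500 bp of a start, the stronger region lying just outside that distance). Eph, Ephrin, fuss and myo had none.

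Of 10 nerve and synapse genes, 6 (60%) had a start region, beside 67.5% of all genes of the chromosome, and none had a peak. The strongest were at the calcium-dependent kinase gene CaMKI (rank 4614), at Cadps, needed for dense core vesicle release (rank 8042), at the synaptic vesicle priming gene unc-13 (rank 9843), and at the kinase gene Dyrk3 (rank 11137). Gat, Syt7, bt and mGluR had none. The gene bt encodes projectin, a muscle protein, and does not belong with the nerve genes by its role, so that without it 6 of 9 had a start region. CaMKII, a kinase gene with a role at synapses that is not on the list and was chosen after its values were seen, had its strongest start region at rank 11243.

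Of 15 genes for translation, mitochondria and other general cell functions, 12 (80%) had a start region, beside 67.5% of all genes of the chromosome. A peak was at 2 of them, gw and RpS3A. ATPsynbeta (rank 3491) and the GTPase gene Arf4 (rank 5424; 8719 in replicate 2 and 7354 in replicate 3) came next. Kif3C, ND-49 and PIP4K had none. The 4 peaks at starts were thus 2 at transcription factor genes and 2 at general cell function genes. No difference between these short lists was tested. The median rank of the strongest start region was 8574 for the transcription factor genes that had one, 8018 for signalling, 10490 for nerve and synapse, and 6102 for general functions, beside 8561 for all 54 genes of the chromosome that had one.

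Known promoter and enhancer elements were counted in the windows of 50 bp on either side of each summit, on both strands. TATCGATA, the full element bound by DREF, was in none of the 8 peaks and 4 of the 404 background windows (0.990%), against 2.71% of peaks and 0.852% of background on the large arms, and 1.05% of all 30000 regions. Its core CGATA, which lies within it, was in 1 peak and 53 background windows (13.1%), against 18.9% of peaks and 13.03% of background on the large arms, and 13.7% of all regions. GAGAG was in 1 peak and 37 background windows (9.16%), against 12.0% and 12.8% on the large arms, and 12.7% of all regions. TATAAA was in 2 peaks and 73 background windows (18.1%), against 16.2% and 11.5%, and 12.0% of all regions. The E-box CACGTG was in none of the peaks and 2 background windows (0.495%), against 1.28% and 1.28%, and 1.25% of all regions. The chromosome itself differed in these letters: of adjoining windows of the same size over its whole length, 0.895% held TATCGATA, 13.3% CGATA, 9.25% GAGAG, 21.8% TATAAA and 0.668% CACGTG, against 0.269, 11.3, 11.5, 11.7 and 1.17% on the large arms. For each of the 5 elements the Wilson interval of the chromosome 4 background took in the chromosome's own share at this window size. In windows of 150 bp on either side this no longer held for TATCGATA (6.19%, interval 4.23 to 8.98%, against 2.94% of the chromosome) or for CGATA (40.6%, 35.9 to 45.5%, against 34.8%), and it still held for the other 3. Some of these longer windows overlap, so the same element can count for neighbouring regions. The intervals do not allow for that and are no test.

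A search of the large arm peaks for words of 7 letters that were present in at least 100 of them, and at least 3 times as frequent as 300 bp to the side, gave 3 words. The first was CTATCGA, which was in 4.30% of the large arm peaks. Next came ACTATCG, in 3.81% of them, and like the first it shares letters with the DREF element. The last was AACACTG, in 3.54%. None of the 8 chromosome 4 peaks held any of these words. In the chromosome 4 background they were in that order in 12, 5 and 6 of 404 windows (2.97, 1.24 and 1.49%), against 1.57, 1.06 and 1.49% on the large arms and 1.88, 1.35 and 1.70% of all regions. The words come from the large arm peaks, so their shares there only describe the search.

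The 4 background windows with the full DREF element, chosen by that match, were at PlexA (rank 3740), 712 bp upstream of ey (rank 4450), at the start of Hcf, which encodes host cell factor (rank 9536), and in an intron of CG33521 (rank 14581). The ey region ranked 2550 in replicate 2 and 11437 in replicate 3. The window at Hcf overlapped untranslated sequence and is not printed. In the other 3 lines, capitals mark TATCGATA, which reads the same on both strands.
Background region of rank 3740, PlexA start, chr4:1027158-1027258: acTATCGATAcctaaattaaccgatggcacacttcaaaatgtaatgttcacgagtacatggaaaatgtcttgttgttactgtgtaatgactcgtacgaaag
Background region of rank 4450, upstream of ey, chr4:696927-697027: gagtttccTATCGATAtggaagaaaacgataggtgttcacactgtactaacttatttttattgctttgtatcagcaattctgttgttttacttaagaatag
Background region of rank 14581, intron of CG33521, chr4:1187044-1187144: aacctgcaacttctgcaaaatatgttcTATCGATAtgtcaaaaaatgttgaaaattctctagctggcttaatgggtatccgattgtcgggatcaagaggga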

How the data were processed

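The 2 libraries were measured by ChIP-seq and are replicates 2 and 3 of 1 group. Per the listing that the authors deposited beside each library, they called regions in each replicate and in the pooled reads against a control alignment, in dm6 and dm3, and made a list thresholded by the irreproducible discovery rate (2892 regions in dm6). No source used here names the aligner or the caller. Each deposited list has a signal value of unstated scale, a −log10 q-value and a summit offset (a score column of distances in bp). Read counts are not part of the lists, the depth is therefore unknown, and Wilson 95% intervals cover the counting of regions or genes only.

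Positions are dm6, 1-based. Genes and transposons came from Ensembl release 115 (BDGP release 6). Summits of replicates within 100 bp were partners. Background regions overlapped no thresholded region by 1 bp or more. Calculations used Python 3.11.15, pandas 2.3.3 and scipy 1.17.1, and the distance and overlap functions were tested on simulated data. No test between chromosomes was run, since 1 group of 2 libraries gives no contrast.

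The named genes were those at or next to the 8 peaks and the 5 strongest background regions, and up to 4 members of each of 4 gene lists (50 symbols, all matched, some of them synonyms of one another) with the strongest start region; exceptions are named as such. The chromosome, lists and elements were chosen with earlier results of these data known. Alternatives were other distances and windows, each replicate alone, and the dm3 lists.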

Additional observations from a re-analysis of the deposited data

How the results depend on the processing

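The share of regions among the strongest stayed below, and the density of regions above, that of every large arm in each replicate alone. No paired analysis was possible because the 2 libraries form 1 group. With 1 replicate left out, regions per Mb were 255.2 to 313, the share among the strongest regions, as many as there were peaks, was 2.62 to 2.84%, the median rank was 17487 to 17608, summits at gene starts were 19.4 to 24.4%, genes with a start region were 51 to 54, and genes with a strong one 4 to 5. The background share in coding exons was 22.4 to 27.1%, and that in transposons 13.1 to 16.3%, alternatives added after seeing the data. Distances set the levels: partners within 50 and 200 bp were 15.2 and 33.2% from replicate 2 and 18.6 and 40.4% from replicate 3, and summits within 250 and 1000 bp of a start were 16.8 and 33.7%. Genes with a start region numbered 46 and 63 at those distances, and with a peak 3 and 4. In windows of 150 bp on either side of the summit the median G+C was 36.2%, and over all chromosome 4 regions TATCGATA was found in 6.07%, CGATA in 40.3%, GAGAG in 25%, CACGTG in 2.67%, TATAAA in 48.3%, CTATCGA in 9.95%, ACTATCG in 3.64% and AACACTG in 5.10%. In the dm3 lists chromosome 4 had 407 pooled regions and 8 peaks. The depth of the libraries is unknown, and with 8 peaks shares among them are known only within wide intervals.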

Other observations

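In windows of 150 bp on either side of the summit the full DREF element was in 25 of 404 chromosome 4 background regions (6.19%, Wilson 95% interval 4.23 to 8.98%) and in none of the 8 peaks. On the large arms it was in 2.08% of background regions and 6.66% of peaks. Adjoining windows of that size over the whole of chromosome 4 held it in 2.94%, and those over the large arms in 0.827%. Of the 25 regions, 7 were at gene starts and 8 had their summit in an annotated transposon. Of all 404 chromosome 4 background regions, 20.8% were at gene starts and 13.6% had their summit in a transposon. Windows of this size overlap where summits lie close, which the interval does not allow for. No test of these shares was run.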
